A study of Mus musculus with 8 samples.

Results

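The 10 genes described here encode heat shock chaperones of the cytosol and of mitochondria: Hspa1a, Hspa1b, Hspa8, Hspb1, Hsph1, Dnajb1, Hsp90aa1, Hsp90ab1, Hspd1 and Hspe1. They form a list chosen by name, and were found by symbol among the 52636 gene identifiers of a table of read counts; all 10 were present and all 10 passed the filter on low counts. The table holds 8 RNA-seq libraries of mouse epiblast at embryonic day 5.5, the tissue that goes on to form the embryo proper. All embryos carried the genotype Sox2Cre;CRAFR26, a construct through which ERK is switched on by 4-hydroxytamoxifen (4OHT); Sox2Cre acts in the epiblast. Embryos were cultured in IVC2 medium with 250 nM 4OHT for 4 h or given ethanol vehicle, and 10 epiblasts were pooled per library after the extraembryonic layers had been dissected away. The mouse line came from embryonic stem cells injected into morulas, from 2 clones of these cells, clone 4 and clone 8. The 4 groups were vehicle and 4OHT in each clone, with 2 replicates each. The vehicle libraries are labelled both as 0 h and as 4 h in ethanol, so whether culture time also differed between vehicle and 4OHT cannot be told from the labels. The labels do not tie libraries to litters, and p-values measure only the spread between these libraries.

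Chaperones bind proteins that are not folded and help them fold, assemble or be degraded. HSP70 proteins such as Hspa8 hold short stretches of a client and release them in a cycle driven by ATP; J-domain proteins such as Dnajb1 deliver the client and start the cycle, and HSP110 proteins such as Hsph1 exchange the nucleotide that ends it. HSP90 proteins take over late-folding clients, among them many kinases. Hspd1 (HSP60) and its lid Hspe1 (HSP10) form the folding chamber of the mitochondrial matrix, and Hspb1 is a small heat shock protein that keeps unfolded clients from aggregating. Under stress, the factor HSF1 binds heat shock elements, inverted repeats of the unit GAA, and raises transcription of many of these genes, above all Hspa1a and Hspa1b, which are nearly silent in most unstressed cells. In the early embryo the constitutive forms are abundant.

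Vehicle libraries held 33.3 to 38.0 M counts and 4OHT libraries 56.4 to 72.5 M (M, 1000000), and 23138 to 23832 genes had a count. All 10 epiblast markers checked, among them Pou5f1 and Dnmt3b, had at least 10 counts in every library. So did all 16 visceral endoderm markers and all 14 extraembryonic ectoderm markers, and whether this RNA came from remnants of the removed layers was not tested. The summed level of the visceral endoderm markers was 1070 and 697 counts per 1000000 (CPM, scaled by TMM) in vehicle clone 4, 2100 and 2100 in vehicle clone 8, 2860 and 3200 in 4OHT clone 4, and 601 and 1530 in 4OHT clone 8. That of the extraembryonic ectoderm markers was 639 and 748 CPM in vehicle clone 8 and 1150 to 1590 CPM in the other 6 libraries. The epiblast markers summed to 5510 to 5920 CPM in vehicle and to 4690 to 5200 CPM in 4OHT libraries, without overlap. Of 8 markers of maternal decidua and blood, up to 4 were at 0 in a library, and their sum was 14.3 to 32.4 CPM. Mitochondrially encoded genes took 1.35% and 1.19% of counts in 4OHT clone 8 and 0.205% to 0.619% in the other 6 libraries. Ribosomal protein genes took 10.6% and 8.69% of counts in vehicle clone 8 and 5.44% to 7.56% in the other 6. Both groups of clone 8 thus stood apart in such measures, vehicle in ribosomal protein and extraembryonic ectoderm genes and 4OHT in mitochondrial genes. As a check of the labels, Egr1, an immediate early gene of ERK signalling, stood at 5.77 to 18.2 CPM in vehicle and at 55.4 to 379 CPM in 4OHT libraries. The ranges did not overlap between the conditions.

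The genes lie at the following places in GRCm38, the build of the reads (mm10), by GENCODE M21. Hspa1a (ENSMUSG00000091971, chr17:34969190-34972156) and Hspa1b (ENSMUSG00000090877, chr17:34956436-34959238) are neighbours on the minus strand, each with 1 exon block. Hsp90ab1 (ENSMUSG00000023944, chr17:45567775-45573271) lies on the same chromosome, also on the minus strand. Hspa8 (ENSMUSG00000015656) spans chr9:40800984-40810087 on the plus strand, Hspb1 (ENSMUSG00000004951) chr5:135887919-135889563 on the plus strand, and Hsph1 (ENSMUSG00000029657) chr5:149614287-149636376 on the minus strand. Dnajb1 (ENSMUSG00000005483) spans chr8:83608193-83612653 on the plus strand, and Hsp90aa1 (ENSMUSG00000021270) chr12:110690605-110702728 on the minus strand. Hspd1 (ENSMUSG00000025980, chr1:55077835-55088243, minus strand) and Hspe1 (ENSMUSG00000073676, chr1:55088132-55091307, plus strand) stand head to head. Their annotated exons share 112 bases on opposite strands, which is 4.239% of the exonic length of Hspd1 and 7.598% of that of Hspe1. Hspa1a shares 564 exonic bases, 19.009% of its exonic length, with Gm20481 on the opposite strand. Gm20481 had 0 counts in every library. Whether the counting used strand is not given in the sources used here, so reads from these shared bases cannot be assigned.

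The sequences just before the starts of 5 members are shown because they carry matches to the heat shock element and because they show how alike Hspa1a and Hspa1b are. They are taken from RefSeq (GRCm38.p6), which gave a window of 250 bases before the start for 7 of the 10 members; Hspa8, Hsp90aa1 and Hsp90ab1 were not matched. Each is written 5′ to 3′ on the strand of its gene. Capitals mark matches, on either strand, to the 2-unit heat shock elements GAANNTTC and TTCNNGAA, or to the 3-unit element, which is GAANNTTC followed by NNGAA and so holds both. For Hspa1a (chr17:34972157-34972406), Hspa1b (chr17:34959239-34959488) and Hspb1 (chr5:135887669-135887918) the whole window is given, and for Hsph1 (chr5:149636351-149636380) and Hspe1 (chr1:55088053-55088082) a site of 30 bases, since other annotated transcripts of Hsph1 and Hspd1 begin inside those windows.
Hspa1a: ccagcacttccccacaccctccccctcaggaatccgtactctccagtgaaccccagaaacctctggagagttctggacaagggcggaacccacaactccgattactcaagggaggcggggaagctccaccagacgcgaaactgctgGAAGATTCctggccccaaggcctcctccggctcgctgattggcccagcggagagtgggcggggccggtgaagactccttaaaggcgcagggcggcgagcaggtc
Hspa1b: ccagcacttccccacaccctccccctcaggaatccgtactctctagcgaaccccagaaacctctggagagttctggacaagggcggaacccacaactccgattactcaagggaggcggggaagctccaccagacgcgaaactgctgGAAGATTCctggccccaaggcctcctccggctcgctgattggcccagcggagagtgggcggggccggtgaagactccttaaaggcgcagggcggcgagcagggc
Hspb1: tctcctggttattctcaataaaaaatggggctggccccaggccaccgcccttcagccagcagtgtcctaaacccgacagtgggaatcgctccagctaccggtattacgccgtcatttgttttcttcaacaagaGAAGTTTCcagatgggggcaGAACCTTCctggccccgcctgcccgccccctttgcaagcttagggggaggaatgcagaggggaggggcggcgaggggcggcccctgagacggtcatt
Hsph1: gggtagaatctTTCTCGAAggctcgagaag
Hspe1: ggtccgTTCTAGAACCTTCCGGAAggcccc

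The windows of Hspa1a and Hspa1b were identical at 247 of 250 bases. The 3 differences, counted from 1 at the 5′ end of the window with the base of Hspa1a first, were C44T, T47C and T249G, and none lies in the capitals. Both genes held the 2-unit match GAAGATTC at bases -104 to -97 from the start. Hspb1 held a pair of 2-unit matches, at -117 to -110 and at -97 to -90, and Hsph1 held 1, TTCTCGAA, at -33 to -26 from its upstream start. The site before Hspe1 was the densest: it held 2 overlapping 3-unit matches, at -89 to -77 and at -84 to -72. Since Hspd1 starts 216 bases upstream of the start of Hspe1 by one RefSeq start, and 95 bases downstream of it by another, the same bases lie in the window of the former start of Hspd1, on the opposite strand. Among 32851 RefSeq windows of the same length, 153 held the 3-unit element (0.466%), 2199 held GAANNTTC (6.69%) and 2354 held TTCNNGAA (7.17%). Neither of the windows before the RefSeq starts of Dnajb1 held any of these letters.

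Counts of several members could include reads of near-identical copies. The open reading frames of Hspa1a and Hspa1b, of 1926 and 1929 bases, aligned with 1918 identical bases, 8 mismatches and 3 gap bases, an identity of 99.43%. Of the runs of 50 bases in the transcript of Hspa1a, 58.8% also occur in Hspa1b, while in the part after the stop codon 0.0% do. A read within a shared run cannot be assigned to either gene, so the 2 rows are uncertain apart from each other and are also given summed. Hspa8 shared 73.2% of its runs with other genes, Hspb1 58.9%, Hsp90aa1 58.5%, Hspd1 42.8% and Hspe1 35.2%, and the copies that have a count in the table held at most 0.99% of the counts of the member. The copy of Hspe1 and 1 of the 7 copies of Hspa8 were not matched to a count, so no such share is given for Hspe1. How shared reads were counted is not known, so these shares do not bound the part of the copies in a member's counts. Hsph1, Dnajb1 and Hsp90ab1 shared none.

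The levels of the 10 genes ran from 0.181 CPM (Hspa1b) to 7010 CPM (Hsp90ab1), as the plot of levels by library shows. Per kilobase of the reference transcript, Hsp90ab1, the constitutive HSP90, was highest, with a mean of 1960 CPM per kb and a range of 1600 to 2780 over the 8 libraries. Hspa8, the constitutive HSP70, followed at 1270 (709 to 1680), then Hspe1 at 997 (713 to 1640), Hspd1 at 627 (552 to 732) and Hsp90aa1, the inducible HSP90, at 519 CPM per kb (401 to 746). Neighbours in this order overlapped in range. Hsph1 at 78.0 CPM per kb (42.9 to 97.7), Hspb1 at 47.2 (27.3 to 67.4) and Dnajb1 at 44.3 (35.2 to 56.6) formed a second tier that overlapped among themselves and lay below every library of the former 5. The stress-inducible pair was lowest, with Hspa1a at 0.438 CPM per kb (0.169 to 0.973) and Hspa1b at 0.148 CPM per kb (0.0645 to 0.488). The counts behind these were 18 to 119 for Hspa1a and 6 to 82 for Hspa1b, so both rest on few reads. Together the 10 genes took 1.23% to 1.366% of all counts in vehicle libraries and 1.13% to 1.223% in 4OHT libraries.

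**Figure D1:**
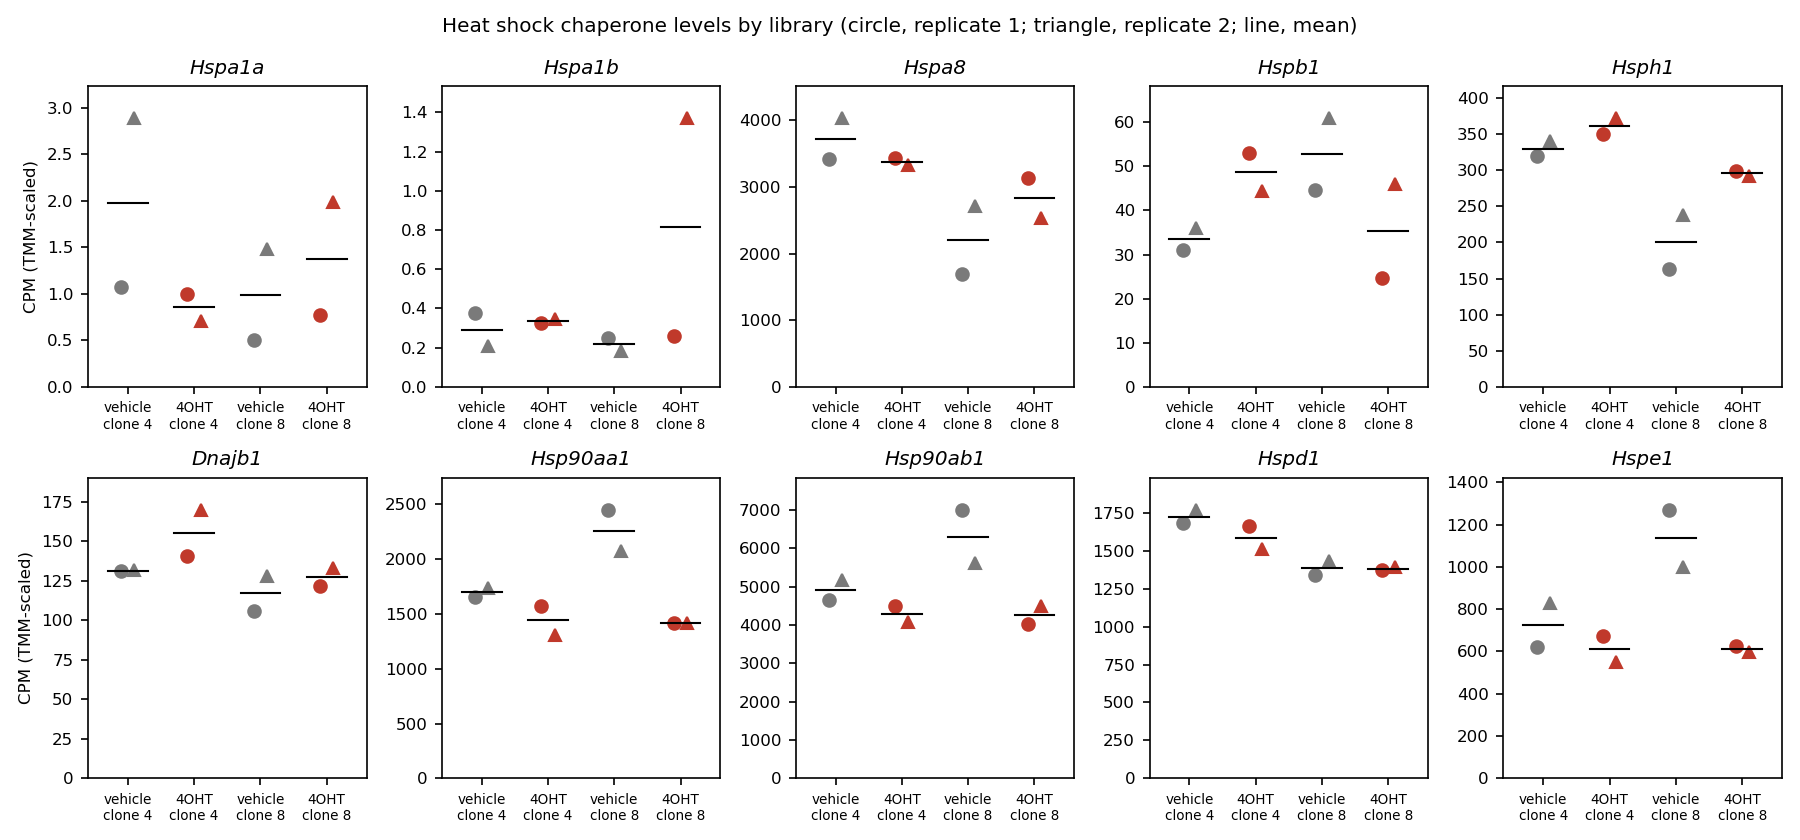
CPM of each chaperone gene (vertical axes, linear from 0, scaled by TMM) in the 8 libraries, in 4 groups on the horizontal axis; circles are replicate 1, triangles replicate 2, and lines the means of 2 libraries. Hsp90aa1 and Hsp90ab1 are lower in all 4 4OHT libraries than in all 4 vehicle libraries, and Hspa1b stands at 1.37 CPM in 4OHT clone 8 replicate 2 against at most 0.375 CPM in the other 7.

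The response to 4OHT was compared with vehicle within clone 8. Both HSP90 genes and the mitochondrial lid Hspe1 fell, by 0.67 (Hsp90aa1), 0.56 (Hsp90ab1) and 0.90 (Hspe1) on the log2 scale, and the HSP110 gene Hsph1 rose by 0.56. The other 6 members did not pass the threshold. Calls were made where the quasi-likelihood test of edgeR, adjusted by Benjamini-Hochberg over 18321 genes, gave an adjusted p under 0.05. In this clone 1465 genes were called higher (8% of those tested) and 1576 lower (8.6%), or 16.6% in either direction, against 4 of the 10 members, 1 higher and 3 lower. Among the 4606 tested genes at least as abundant as Hspb1, a class that holds all 8 members other than Hspa1a and Hspa1b, 1520 were called (33%). At an unadjusted p under 0.05 the same 4 members passed, where 33.2% of tested genes did. The median log2 fold change was 0.06 over the members and 0.07 over all tested genes.

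Hsp90aa1 stood at 2450 and 2070 CPM in vehicle clone 8 and at 1420 and 1420 CPM after 4OHT. Hsp90ab1 stood at 7010 and 5610 CPM in vehicle and at 4040 and 4500 CPM after 4OHT. Neither gene's groups overlapped: both 4OHT libraries lay below both vehicle libraries, and replicate 1 of vehicle was the highest of all 8 for both genes. With so few libraries in a group, such separation can arise by chance. The share of all tested genes that separated in this way within a clone was not counted. The same limit holds wherever overlap within a clone is given below. The log2 fold change was -0.67 (SE 0.12, adjusted p 0.0113) for Hsp90aa1 and -0.56 (SE 0.12, adjusted p 0.0195) for Hsp90ab1, both by edgeR.

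Hspe1 and Hspd1, whose proteins work as lid and chamber of the same machine and whose genes share a start region, had different values. Their ratio was tested only over both clones, not within clone 8, and that test, given with the other ratios, did not pass. Hspe1 stood at 1270 and 1000 CPM in vehicle and at 626 and 596 CPM after 4OHT, with no overlap. Hspe1 changed by -0.90 on the log2 scale (SE 0.17; edgeR, adjusted p 0.0129). Hspd1 stood at 1340 and 1430 CPM in vehicle and at 1370 and 1390 CPM after 4OHT, with both 4OHT libraries between the vehicle libraries. Its log2 fold change was 0.00 (SE 0.09, adjusted p 0.984). The transcripts differ in length, 774 bases for Hspe1 and 2423 for Hspd1, and among tested genes of like length the median clone 8 response was -0.44 and 0.08.

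In the cytosolic HSP70 machine, Hsph1 stood at 163 and 238 CPM in vehicle and at 299 and 292 CPM after 4OHT, so that both 4OHT libraries were above both vehicle libraries. Its log2 fold change was 0.56 (SE 0.16, adjusted p 0.0445 by edgeR). Hspa8, the HSP70 that Hsph1 serves, stood at 1700 and 2710 CPM in vehicle and at 3140 and 2530 CPM after 4OHT, and its groups overlapped. Its log2 fold change was 0.36 (SE 0.20, adjusted p 0.234). Over 20 other settings of the fit the value ran from 0.04 to 0.70. With no expression filter Hspa8 was called higher, at 0.39 (edgeR, adjusted p 0.00417). Dnajb1, the J-domain partner, stood at 106 and 128 CPM in vehicle and at 122 and 133 CPM after 4OHT, and changed by 0.12 on the log2 scale (SE 0.14, adjusted p 0.58).

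The stress-inducible HSP70 genes did not pass the threshold in clone 8, and their replicates lay far apart. Hspa1a stood at 0.502 and 1.48 CPM in vehicle (18 and 49 counts) and at 0.77 and 1.99 CPM after 4OHT (48 and 119 counts). Hspa1b stood at 0.251 and 0.181 CPM in vehicle (9 and 6 counts) and at 0.257 and 1.37 CPM after 4OHT (16 and 82 counts). In both genes replicate 2 was the higher of the 4OHT libraries, and the same library also had the highest Egr1, at 379 CPM. The log2 fold changes were 0.48 (SE 0.69, adjusted p 0.672) for Hspa1a and 1.90 (SE 0.88, adjusted p 0.166) for Hspa1b. Without 4OHT clone 8 replicate 1 the value of Hspa1b passed the threshold, at 2.65 (adjusted p 0.0333); summed to 1 row, the genes gave 0.86 (adjusted p 0.38). Hspb1 stood at 44.7 and 60.9 CPM in vehicle and at 24.6 and 46.1 CPM after 4OHT, a log2 change of -0.58 (SE 0.28, adjusted p 0.181), which passed without 4OHT clone 8 replicate 2, at -1.10 (adjusted p 0.0229).

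The calls in clone 8 depended on which libraries were in the fit. Without vehicle clone 8 replicate 1, 0 of 20643 genes were called at all. The log2 fold changes were then -0.57 for Hsp90aa1 (adjusted p 0.0951), -0.42 for Hsp90ab1 (0.129), -0.74 for Hspe1 (0.11) and 0.28 for Hsph1 (0.239), so that the directions stayed and the value of Hsph1 moved most. The call of Hsph1 was also lost without any of 6 other libraries, at 0.53 to 0.57, and that of Hsp90ab1 without 4OHT clone 8 replicate 1, at -0.49 (adjusted p 0.0573). From the 4 libraries of clone 8 alone, where 3 genes were called, all 4 calls were lost, with Hsp90aa1 at -0.70, Hsp90ab1 at -0.59, Hspe1 at -0.92 and Hsph1 at 0.53. The part of the ribosomal protein, mitochondrial and extraembryonic ectoderm levels that set the clone 8 libraries apart was not tested.

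**Figure D2:**
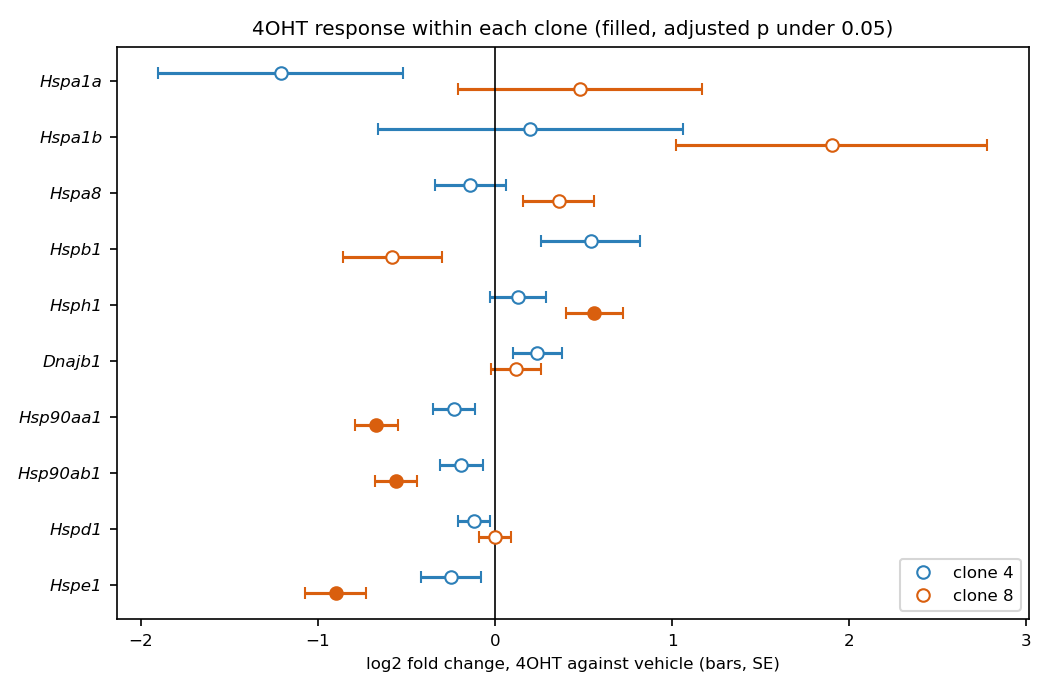
Log2 fold change of 4OHT against vehicle (horizontal axis, bars SE) for the 10 chaperone genes in clone 4 (blue) and clone 8 (orange), from 2 libraries a group; filled points have an adjusted p under 0.05. In clone 8 Hsp90aa1, Hsp90ab1 and Hspe1 lie below 0 and Hsph1 above, and no point of clone 4 is filled.

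Within clone 4, 0 of the 10 members were called, where 7 of all tested genes were (0.0382%). At an unadjusted p under 0.05 there were also 0 members, where 9.9% of tested genes passed; DESeq2 called 0 as well. Values ran from -1.21 (Hspa1a) to 0.54 (Hspb1), 4 above and 6 below 0. Hsp90aa1 stood at 1650 and 1740 CPM in vehicle and at 1570 and 1310 CPM after 4OHT, and Hsp90ab1 at 4650 and 5180 and at 4490 and 4090 CPM. As in clone 8, both 4OHT libraries lay below both vehicle libraries for either gene, but by less, with log2 fold changes of -0.23 (SE 0.12, adjusted p 0.589) and -0.19 (SE 0.12, adjusted p 0.701). How many of all tested genes separated in this way in clone 4 was not counted either.

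Hspe1 stood at 621 and 830 CPM in vehicle clone 4 and at 672 and 552 CPM after 4OHT, with overlap, and Hspd1 at 1680 and 1770 and at 1660 and 1510 CPM. Their log2 fold changes were -0.25 (SE 0.17, adjusted p 0.725) and -0.12 (SE 0.09, adjusted p 0.76). Hspa8 stood at 3420 and 4030 CPM in vehicle and at 3430 and 3330 CPM after 4OHT, a log2 change of -0.14 (SE 0.20, adjusted p 0.884). Hsph1 stood at 319 and 340 and at 350 and 372 CPM, and Dnajb1 at 131 and 132 and at 141 and 170 CPM; in both co-chaperones the 4OHT libraries were above the vehicle libraries, with log2 fold changes of 0.13 (SE 0.16, adjusted p 0.864) and 0.24 (SE 0.14, adjusted p 0.646). Hspb1 went from 31.1 and 36.1 CPM to 53.0 and 44.5 CPM, without overlap, a log2 change of 0.54 (SE 0.28, adjusted p 0.59).

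Hspa1a was highest of all libraries in vehicle clone 4 replicate 2, at 2.89 CPM (97 counts), against 1.07 CPM (40 counts) in replicate 1. After 4OHT it stood at 1.0 and 0.709 CPM (56 and 51 counts), a log2 change of -1.21 (SE 0.69, adjusted p 0.643). Hspa1b stood at 0.375 and 0.208 CPM in vehicle and at 0.323 and 0.347 CPM after 4OHT, a log2 change of 0.20 (SE 0.86, adjusted p 0.973). The rows summed gave -0.93 (adjusted p 0.725).

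The difference of the responses between the clones was tested itself, as an interaction. It passed for 0 of the 10 members, where 519 of all tested genes passed (2.83%, of which 1.75% of tested genes in the lower direction). At an unadjusted p under 0.05 there were 3 members, Hspb1, Hspe1 and Hsp90aa1, where 22.7% of tested genes passed. The clone 8 response minus the clone 4 response was -1.11 (SE 0.39, adjusted p 0.145) for Hspb1, -0.65 (SE 0.24, adjusted p 0.153) for Hspe1 and -0.44 (SE 0.17, adjusted p 0.168) for Hsp90aa1. So in this fit the calls made in clone 8 and not in clone 4 were not shown to differ between the clones. For Hspb1 the difference passed in DESeq2 and in edgeR without the expression filter (adjusted p 0.00196). Without 4OHT clone 8 replicate 2 it was -1.64. With no expression filter, where 6.83% of all genes passed, it also passed for Hspe1 and Hspa8. The values there were -0.64 (edgeR, adjusted p 0.00695) for Hspe1 and 0.51 (adjusted p 0.0171) for Hspa8. The visceral endoderm marker sums differed between the same groups: they were higher after 4OHT in clone 4 and lower in clone 8, and the library lowest in Hspb1 (24.6 CPM, 4OHT clone 8 replicate 1) was also lowest in that sum (601 CPM). The part of these cells in the values of Hspb1 was not tested, and in bulk libraries fewer cells of a type and less RNA per cell cannot be told apart.

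Over both clones, with clone as an additive term, 0 of the 10 members were called, where 1 of all tested genes was (0.00546%). At an unadjusted p under 0.05 there were 4 members, where 16.9% of tested genes passed: Hsp90aa1 at -0.45 (SE 0.11, adjusted p 0.132), Hspe1 at -0.57 (SE 0.16, adjusted p 0.16), Hsp90ab1 at -0.38 (SE 0.11, adjusted p 0.164) and Hsph1 at 0.34 (SE 0.14, adjusted p 0.254). DESeq2 called 2 members lower, where it called 5.59% of tested genes in either direction, and the average of both clones' responses, taken from the 4-group fit, called 3 lower and 0 higher, where 3.35% and 2.45% of genes were (5.8% together; 4 members had an unadjusted p under 0.05, against 25.7% of genes): Hsp90aa1 (adjusted p 0.0263), Hspe1 (0.0322) and Hsp90ab1 (0.0424). For that average, 13.7% of the genes at least as abundant as Hspb1 were called. Hsp90aa1 ran from 1650 to 2450 CPM in the 4 vehicle libraries and from 1310 to 1570 CPM in the 4 4OHT libraries. Hsp90ab1 ran from 4650 to 7010 and from 4040 to 4500 CPM. The 2 HSP90 genes were the members in which, as in the epiblast marker sum, all 4 4OHT libraries lay below all 4 vehicle libraries, and in 0 members did they lie above. Of all tested genes, 5.58% were lower and 3.42% higher without overlap, so that 2 of 10 members stand beside 9% of genes.

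In vehicle, without 4OHT, the clones already differed in 3 members, where 1534 of all tested genes differed (8.37%). Among the 4606 genes at least as abundant as Hspb1, which hold all 3, 790 differed (17.2%). The difference, clone 8 minus clone 4 on the log2 scale, was called higher for 1 member (4.06% of genes) and lower for 2 (4.31%), and 7 members had an unadjusted p under 0.05 (25.7% of genes). Hspa8 was lower in clone 8, at -0.76 (SE 0.20, adjusted p 0.0491), as was Hsph1 at -0.71 (SE 0.16, adjusted p 0.0337). Hspe1 was higher in clone 8, at 0.65 (SE 0.17, adjusted p 0.0466). With a trend on transcript length taken off each library it was 0.35 and did not pass (adjusted p 0.225). Hsp90aa1 and Hsp90ab1 were at 0.42 (adjusted p 0.0624) and 0.36 (adjusted p 0.103), and Hspd1 at -0.31 (adjusted p 0.0704). After 4OHT, 0 members differed between the clones, where 37 of all tested genes did (0.202%): Hsp90aa1 (-0.03), Hsp90ab1 (-0.01) and Hspe1 (0.00) were near 0. The 4 members called in the clone 8 response and the 3 called here rest on the same vehicle libraries of clone 8. All 3 calls were lost without either library of vehicle clone 4, either of 4OHT clone 4, or vehicle clone 8 replicate 1; without vehicle clone 4 replicate 1 or vehicle clone 8 replicate 1, 0 of all genes were called. Without a 4OHT clone 4 library the values were -0.76, -0.72 and 0.65 for Hspa8, Hsph1 and Hspe1. Without a vehicle clone 4 library they were -0.86 and -0.62 for Hspa8, -0.75 and -0.66 for Hsph1, and 0.46 and 0.88 for Hspe1. Without vehicle clone 8 replicate 1 they were -0.45, -0.46 and 0.48, the smallest for Hspa8 and Hsph1. Vehicle clone 8 was also the group with the highest ribosomal protein share and the lowest extraembryonic ectoderm marker sum, whose part was not tested.

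Ratios within a library do not depend on scaling between libraries. The ratio of the HSP90 genes was steady: Hsp90aa1 stood at 31.6% to 36.9% of Hsp90ab1 in CPM in the 8 libraries, and 4OHT minus vehicle was -0.07 on the log2 scale. Hspe1 stood at 37.0% and 46.8% of Hspd1 in vehicle clone 4, at 95% and 70.1% in vehicle clone 8, at 40.6% and 36.5% in 4OHT clone 4 and at 45.6% and 42.8% in 4OHT clone 8. The vehicle libraries of clone 8 thus stood apart, and the log2 difference of 4OHT from vehicle was -0.11 in clone 4, -0.88 in clone 8 and -0.50 over both. Hsph1 against Hspa8 was higher after 4OHT by 0.27 in clone 4, 0.19 in clone 8 and 0.23 over both. The exact two-sided permutation test of 4 against 4 libraries (70 arrangements, smallest p 0.0286) gave 0.2 for both the HSP90 and the HSP60 pair and 0.0571 for Hsph1 against Hspa8. Adjusted over the 5 ratios tested by Benjamini-Hochberg, the exact p-values were 0.333, 0.333 and 0.286. With this adjustment a ratio alone at the smallest p could not pass 0.05, so not passing says little about a ratio. The test also pooled the clones. Dnajb1 against Hspa8 differed by 0.05 over both clones (exact p 0.771), with 0.37 in clone 4 and -0.27 in clone 8. The sum of Hspa1a and Hspa1b against Hspa8 differed by -0.18 (exact p 0.743), with -0.70 in clone 4 and 0.34 in clone 8. None of the 5 ratios passed.

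**Figure D3:**
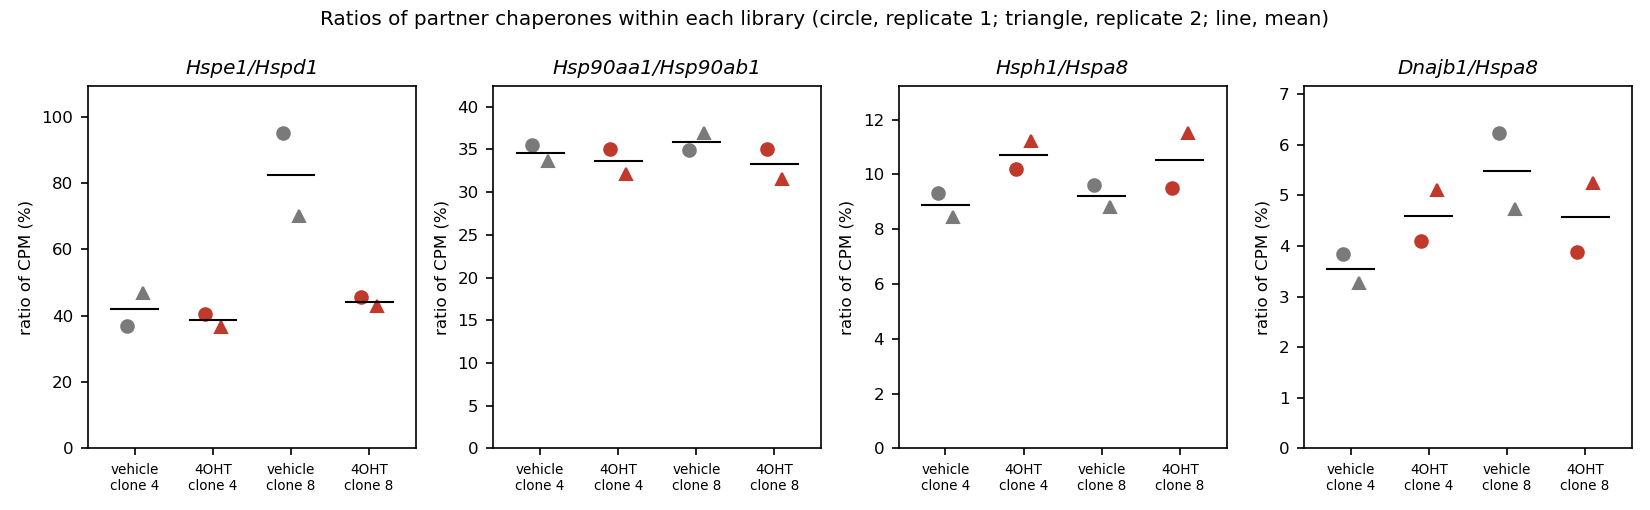
CPM of the former gene as a percentage of the latter (vertical axes, linear from 0) within each library, in the 4 groups; circles are replicate 1, triangles replicate 2, lines means of 2 libraries. Hspe1 is at 95% and 70.1% of Hspd1 in vehicle clone 8 and at 36.5% to 46.8% in the other 6 libraries, while Hsp90aa1 keeps to 31.6% to 36.9% of Hsp90ab1.

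Transcript length moved with the clone 8 response across all genes. The 18293 tested genes with a length were put in 10 bins of like size, bin 1 the shortest. The median log2 fold change in clone 8 was -0.44 in bin 1, 0.28, its highest, in bin 8, and 0.26 in bin 10; in clone 4 the medians stayed between -0.13 and 0.04. In vehicle, clone 8 minus clone 4 ran the other way, from 0.38 in bin 1 to -0.19 in bin 8 and -0.06 in bin 10. Hspe1, with 774 bases the shortest member, lies in bin 1, and Hsph1, with 3802 bases the longest, in bin 8. Hsp90ab1 (2520 bases) and Hsp90aa1 (3281 bases) lie in bins 5 and 7, whose medians were 0.08 and 0.23, above 0, while both genes fell. Taking a trend on length off each library reduced the slope but did not end it: the bin medians in clone 8 still ran from -0.31 in bin 1 to 0.11 in bin 8. After that step the clone 8 response was -0.83 for Hsp90aa1 (adjusted p 0.0135), -0.68 for Hsp90ab1 (0.0211) and -0.68 for Hspe1 (0.0288), which lies in bin 1, and that of Hsph1 was 0.40 and no longer passed (0.104). The part of the mitochondrial share, which was highest in both 4OHT libraries of clone 8, was not tested.

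**Figure D4:**
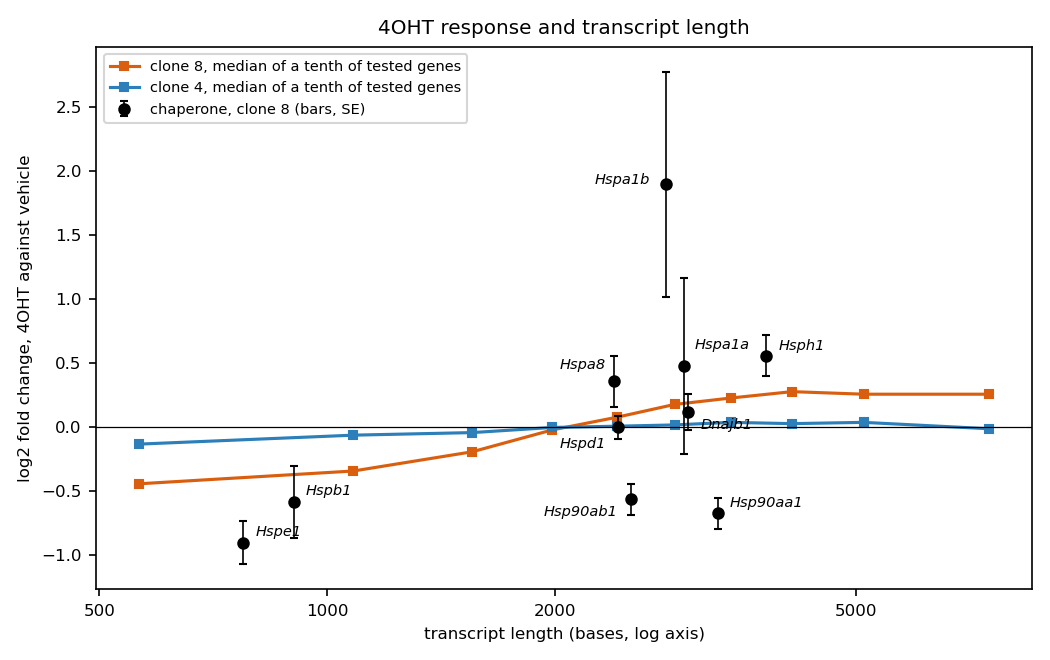
Log2 fold change of 4OHT against vehicle (vertical axis) against transcript length in bases (log axis): squares joined by lines are medians of 10 length bins of the tested genes in clone 8 (orange) and clone 4 (blue), black points the 10 chaperone genes in clone 8 with SE. Medians in clone 8 run from -0.44 to 0.28, and Hsp90ab1 and Hsp90aa1 lie below the medians of their lengths.

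Other genes of the chaperone network were examined in 11 lists of 109 genes, of which 104 could be tested. In clone 8, 0 were called higher and 15 lower, 14.4% of those tested against 16.6% of all genes; in clone 4, 0 were called. The difference between the clones passed for 4, all lower (3.85% against 2.83%). Prefoldin, which hands nascent actin and tubulin to the chaperonin TRiC, had the most. Of its 6 subunit genes, 5 fell in clone 8, where 8.6% of all tested genes were called lower. Among the 4606 tested genes at least as abundant as Hspb1, a class that holds these 5, 872 were called lower. The 5 included Pfdn5 at -0.85 (adjusted p 0.0126), Pfdn6 at -0.73 (0.00852) and Pfdn2 at -0.62 (0.0115). Pfdn6 stood at 363 and 327 CPM in vehicle clone 8 and at 199 to 263 CPM in the other 6 libraries. Its transcript has 807 bases, within length bin 1. The 5 genes lie in bins 1 to 3, whose median clone 8 responses ran from -0.44 to -0.19, and the part of length was not tested. In vehicle, 5 of the 6 subunit genes were already higher in clone 8 than in clone 4. Of these 2 were called, where 4.06% of all tested genes were called higher. All 8 subunit genes of TRiC lay below 0 in both clones, with medians of -0.18 in clone 4 and -0.14 in clone 8, and 0 were called. Of all tested genes, 49.3% lay above 0 in clone 4 and 53.7% in clone 8. Of those at least as abundant as Hspb1, 47.0% and 49.8% did.

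Of 12 co-chaperones of HSP90, 2 fell in clone 8, where 8.6% of all tested genes did, and 0 rose: Fkbp4, an immunophilin, at -0.44 (adjusted p 0.0136) and Ptges3, the p23 protein that binds HSP90 with ATP, at -0.34 (0.044). Among the 4606 tested genes at least as abundant as Hspb1, 872 were called lower in clone 8. That class holds Fkbp4 and Ptges3, and also Hspbp1 and Grpel1, given below. Fkbp4 stood at 1150 and 1160 CPM in 4OHT clone 8 and at 1510 to 1600 CPM in the other 6 libraries. Of the partners of HSP70, 1 of 12 J-domain proteins and 2 of 10 exchange and client factors fell, beside 8.6% of all tested genes: Dnajc21, a J-domain protein of ribosome assembly, at -1.24 (0.0266), Bag2, a nucleotide exchange factor, at -0.63 (0.0366) and Hspbp1, another such factor, at -0.41 (0.0369). Grpel1, the exchange factor of mitochondrial HSP70, fell by 0.55 (0.0147), and Hspb11, listed with the small heat shock proteins but known as a part of intraflagellar transport, fell by 1.08 (0.0196). Of the 6 tested genes of HSP70 and HSP110 outside the members, 0 were called.

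Of the regulators, Hsf1, the main heat shock factor, did not pass: it stood at 106 and 125 CPM in vehicle clone 4, 95.8 and 99.1 in vehicle clone 8, 113 and 127 in 4OHT clone 4 and 125 and 120 CPM in 4OHT clone 8. Its log2 fold change was 0.06 (adjusted p 0.937) in clone 4 and 0.33 (adjusted p 0.0982) in clone 8. Hsbp1, a small protein that binds heat shock factor trimers, fell in clone 8 by 0.40 (adjusted p 0.0452). All 16 chaperones of the endoplasmic reticulum lay above 0 in clone 4 (median 0.27), where 49.3% of all tested genes did, with 0 calls, and 9 of 16 lay below 0 in clone 8 (median -0.07) with 1 call, Manf, a secreted stress protein, at -0.65 (0.016). The visceral endoderm marker sums went from 1070 and 697 to 2860 and 3200 CPM in clone 4 and from 2100 and 2100 to 601 and 1530 CPM in clone 8, and their part was not tested.

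The 4 genes whose response differed between the clones were Serpinh1, the collagen chaperone HSP47, at -1.96 (adjusted p 0.0437), Bag2 at -1.59 (0.0256), Manf at -1.06 (0.0331) and Ubb, a polyubiquitin gene induced by heat, at -0.70 (0.047). Ubb also fell within clone 8, by 0.36 (0.046). Serpinh1 stood at 185 and 154 CPM in vehicle clone 4, 315 and 251 in vehicle clone 8, 353 and 477 in 4OHT clone 4 and 121 and 236 CPM in 4OHT clone 8. Bag2 stood at 26.6 and 24.9, 32.4 and 38.9, 53.5 and 46.9, and 21.0 and 25.0 CPM in the same order. Ubb stood at 1260 and 1210, 1490 and 1360, 1450 and 1660, and 1150 and 1070 CPM, and Manf at 164 and 132, 206 and 189, 195 and 198, and 134 and 117 CPM. In all 4 genes 4OHT clone 4 and vehicle clone 8 had the highest means. The genes were picked for a negative difference of the responses, which by itself favours this order, so the order adds nothing to the calls. These groups also had the highest visceral endoderm marker sums, whose part in these values was not tested.

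**Figure D5:**
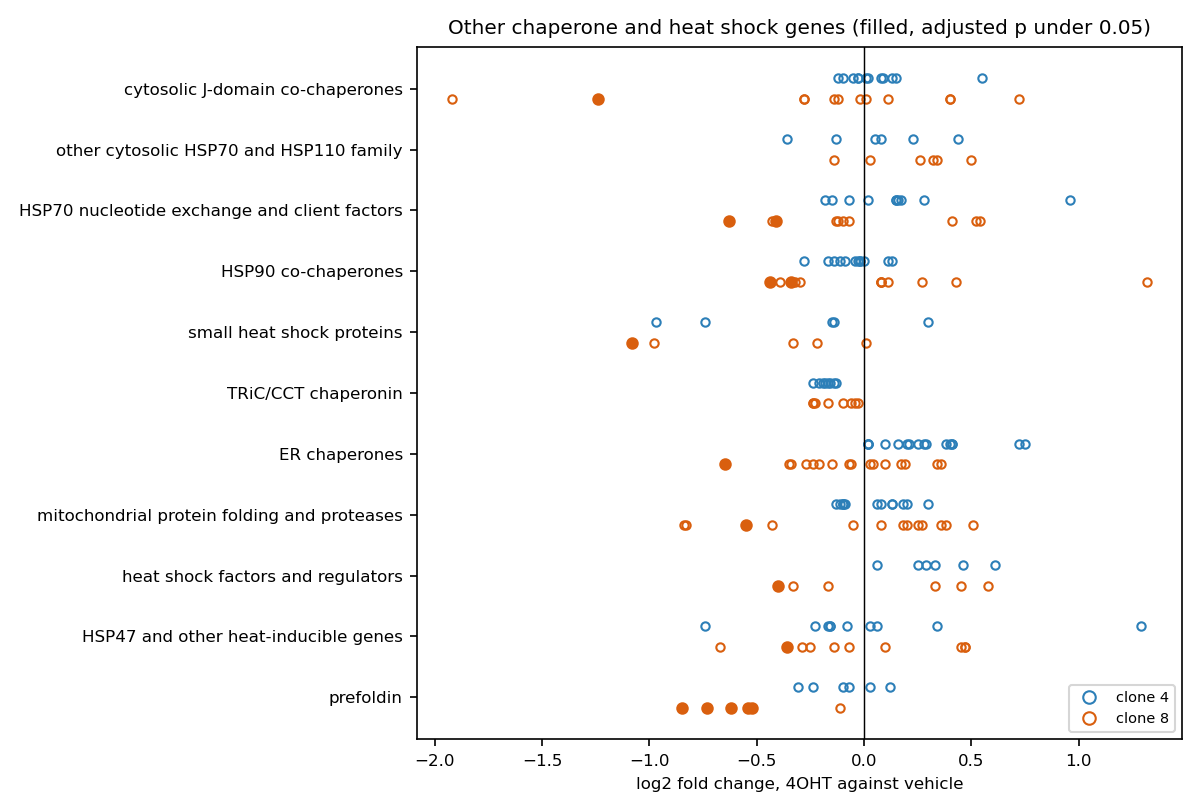
Log2 fold change of 4OHT against vehicle (horizontal axis) for 104 tested genes of 11 chaperone and heat shock lists, a point per gene, in clone 4 (blue) and clone 8 (orange); filled points have an adjusted p under 0.05. All 15 filled points are in clone 8 and below 0, and 5 of them are prefoldin genes.

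The genes most like the 3 members of widest range over the libraries were found by the root mean square difference of centred log2 CPM over 8 libraries. For Hspa1a, which ranged over 2.43 on the log2 scale, the nearest was 8030462N17Rik (0.463), where the median gene was at 0.787. For Hspb1 (range 1.30) they were Gpr137b (0.155) and Ifi30 (0.166), with a median of 0.469. For Hspa8 (range 1.25) they were Zkscan1 (0.0968) and Nav1 (0.0973), with a median of 0.409. No other member was among them.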

How the data were processed

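RNA was measured in 8 libraries prepared with a low-input cDNA kit from 7 ng of RNA, per the labels' protocols. The authors deposited raw counts per Ensembl gene, per the file's whole-number values; reads were demultiplexed with bcl2fastq 2.19.1 and aligned with STAR 2.5.3a to mm10, per the submitters' processing notes. The counting program, annotation and use of strand are not given in the sources used here. Symbols matched 52403 of 52636 identifiers. The counts were tested with edgeR 4.0.16 in R 4.3.3: filterByExpr over the 4 groups (minimum count 10), TMM scaling, glmQLFit and glmQLFTest, with all 8 libraries in a fit of 4 groups or with clone and treatment as additive terms, and Benjamini-Hochberg adjustment over 18321 genes. An SE is the log2 fold change over the square root of F. Replicates of a group differed by more than sampling noise (chi-square per degree of freedom 20.9 to 61.1). Lengths and places came from GENCODE M21. The members, the lists and the tests were chosen with earlier results of these data known. All 10 members are named; of each list, genes called in a within-clone response or the difference are named, up to 3 each way by size, plus Hsf1, and the genes most like the 3 members of widest range, of which 1 is not reported here. Alternatives were RLE factors, library totals, 2 other filters, DESeq2 1.42.0, a threshold of 0.01, replicate blocks, each library left out, thinned counts, Hspa1a and Hspa1b summed and 1 clone alone. The fit was tested on simulated data with known changes. For the clone 8 response it recovered 32 of 100 genes changed by 1 on the log2 scale and 69 of 100 changed by 2. Each run gave 1 false call. Changes of these sizes were thus missed in part, so a member that did not pass may still have changed.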

Additional observations from a re-analysis of the deposited data

Results flagged for a closer look

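The 10 members and 5 ratios were examined in the 4 libraries of each condition, 30 sets in all, for a library far from the rest by Dixon's criterion, which sets the gap to the nearest library against the whole range. Chance gives about 1 in 20, or 1.5 here, and 3 were found. Hspa1b stood at 1.37 CPM in 4OHT clone 8 replicate 2, and the gap to the next 4OHT library took 0.918 of the range. In the same library the log2 ratio of Hspa1a plus Hspa1b to Hspa8 was -9.56, with a gap of 0.861 of the range. Dnajb1 stood at 106 CPM in vehicle clone 8 replicate 1, below the other vehicle libraries, with a gap of 0.872 of the range.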

How the results depend on the processing

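The number of members called stayed the same in every comparison with RLE factors, Hspa1a and Hspa1b summed, thinned counts and edgeR's other quasi-likelihood option, the last chosen after seeing the data, as was the length trend. In the clone 8 response, with 1 member higher and 3 lower, the count higher was 2 with no expression filter. It was 0 at a threshold of 0.01, with the length trend reduced or from clone 8 alone. The count lower was 0 at 0.01 and from clone 8 alone, where Hsp90aa1 and Hspe1 had adjusted p 0.0578. With no filter, Hspb1 was also called lower (-0.55, edgeR adjusted p 0.0343). Leaving out each library gave 0 to 2 higher and 0 to 4 lower. For the difference between clones, no filter gave 1 higher and 2 lower (6.83% of all genes called), DESeq2 1 lower (9.86%), and leaving out a library 0 to 1 lower. Over both clones, 3 were lower with no filter (4.32%), 2 in DESeq2 (5.59%) and 3 as the average of both responses. In vehicle, no filter also called Hspd1 lower in clone 8 than in clone 4 (-0.33, edgeR adjusted p 0.0414). Between the clones in vehicle, with 1 higher and 2 lower, the count higher was 4 with no filter, 2 with at least 10 counts in every library, 2 in DESeq2, 0 at 0.01, 0 with the length trend reduced and 0 to 3 with a library left out; the count lower was 1 with library totals, 0 at 0.01, 1 with the length trend reduced and 0 to 2 with a library left out. In 4OHT a library left out gave 0 to 1 lower.

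The labels do not say whether same-numbered libraries belong together. The correlation of their deviations from the group means was 0.0947 in clone 4 and -0.0101 in clone 8. With 2 libraries a group this is a single value per clone, which cannot settle whether they were paired. With a replicate block within clone the clone 8 calls of members stayed at 1 higher and 3 lower; with a replicate block shared over the clones, 0 were higher and 1 lower between the clones in vehicle.

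Values near 0 changed sign. Hspd1 in clone 8 (0.00) was 0.12 with library totals, 0.02 with no filter, 0.02 with at least 10 counts everywhere, and -0.08 to 0.01 with a library left out. With a library left out, Hspa1a in clone 8 ran from -0.36 to 1.42, Dnajb1 in clone 8 from -0.04 to 0.23 (-0.03 without the length trend), the Dnajb1 difference from -0.28 to 0.02, Hspa1b in clone 4 from -0.16 to 0.68 (-0.09 thinned) and Hspa1b between vehicle clones from -0.78 to 0.06. The ratios ran from -0.67 to 0.02 (Hspa1a plus Hspa1b to Hspa8), -0.09 to 0.22 (Dnajb1 to Hspa8), -0.10 to -0.05 (HSP90), -0.72 to -0.26 (Hspe1 to Hspd1) and 0.19 to 0.28 (Hsph1 to Hspa8). The cause of these changes was not tested.

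Over all genes, library totals moved the median clone 8 response by 0.12 and the share of calls that were higher from 48.2% to 66.2%. DESeq2 called 381 genes higher and 85 lower in clone 4 and 2067 and 2210 in clone 8; no filter called 566 and 162, and 2361 and 1902. The planned edgeR option equals its default and was not run apart. Hspa1a and Hspa1b rest on 6 to 119 counts, which limits their precision.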
